A study of Mus musculus with 8 samples.

Results

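The clustered protocadherins were taken as all genes in the count table whose symbol starts with Pcdha, Pcdhb or Pcdhg. There were 59 such genes among 24062 measured genes, of which 15 belonged to the alpha cluster, 22 to the beta cluster and 22 to the gamma cluster. RNA-seq was performed on mouse embryonic stem cells (mESCs) of a single *Setdb1* conditional knockout line, #33-6, in 4 conditions with 2 biological replicates each, and all 8 libraries carried the conditional allele. WT mESCs received no treatment. UNC0642-treated mESCs were cultured with 2 µM UNC0642, an inhibitor of the H3K9 methyltransferases G9a and GLP, for 3 days. *Setdb1* KO mESCs were cultured with 800 nM 4-hydroxytamoxifen (4-OHT), which activates the recombinase that deletes *Setdb1*, for 5 days, and UNC0642-treated *Setdb1* KO mESCs are labelled as given 800 nM 4-OHT for 2 days followed by 2 µM UNC0642 for 3 days. The labels do not say whether 4-OHT was also present during the UNC0642 days, so these cells may have had 2 days of 4-OHT against 5 in *Setdb1* KO mESCs, and UNC0642 and the length of 4-OHT exposure cannot be told apart between these conditions. None of these libraries received 4-OHT while keeping *Setdb1*, so loss of *Setdb1* and exposure to 4-OHT cannot be told apart.

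Clustered protocadherins are cadherin-like cell surface proteins that neurons use to tell their own branches from those of other cells. In the alpha and gamma clusters, each variable first exon has its own promoter and is spliced to a set of exons shared by the whole cluster, whereas beta genes have no shared exons. Promoter choice depends on CTCF, cohesin and DNA methylation, and in neurons SETDB1, an enzyme that methylates H3K9, is known to act on the chromatin of this locus. Most members are known to be weakly expressed outside the nervous system.

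In the GRCm38 assembly the 3 clusters lie next to each other on mouse chromosome 18. The alpha genes span positions 36930285 to 37188897, the beta genes 37264998 to 37521419 and the gamma genes 37661775 to 37841873. In the GENCODE vM21 annotation, all 22 gamma genes share the starts of 3 constant exons, and so do the 13 alpha genes annotated there. Of the 22 beta genes, 18 have a single exon. A read from a constant exon therefore does not tell which alpha or gamma promoter it came from, and only reads in or spliced to a first exon identify a member.

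The 8 libraries held between 11702590 and 26807807 counts, the first WT library and the first UNC0642-treated *Setdb1* KO library being the smallest, at 11702590 and 11897456. A level of 3 counts, used here as the detection floor, corresponded to between 0.108 and 0.311 normalised CPM (counts scaled to a common library size, with factors from the trimmed mean of M values). *Setdb1* itself was at 169 and 127 CPM in WT mESCs and at 130 and 86.3 CPM after UNC0642, against 47.3 and 51.0 CPM in *Setdb1* KO mESCs and 61.1 and 34.1 CPM with KO and UNC0642 together. All 4 libraries labelled KO were thus below all 4 others. The log2 fold change was -1.59 ± 0.44 (SE) in *Setdb1* KO mESCs against WT (edgeR adjusted p = 0.181) and -1.64 ± 0.44 for both treatments (adjusted p = 0.0746). With the replicate number as a block both passed the threshold of 0.05, at adjusted p = 0.0164 and 0.00593, and so they did in DESeq2 on all 8 libraries, at 0.0475 and 0.0209.

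Markers of other cell states were looked at in the same libraries. The summed level of 10 pluripotency markers ranged from 3001 to 4414 CPM in WT mESCs and from 3807 to 5837 CPM in the other conditions, and that of 12 neural markers from 225 to 357 CPM over all libraries, with 0 of 10 and 0 of 9 tested genes called against WT by edgeR or DESeq2 and 0 at an unadjusted p under 0.05 in edgeR. The 6 markers of primitive endoderm summed to between 58.0 and 60.8 CPM after UNC0642 and to between 8.34 and 45.2 CPM elsewhere, the 7 of trophectoderm to between 25.3 and 132 CPM and the 6 of fibroblasts to at most 17.99 CPM. The 8 markers of the two-cell stage summed to 8.79 and 25.8 CPM in WT mESCs, to between 248 and 766 CPM after UNC0642, to between 147 and 362 CPM in *Setdb1* KO mESCs and to between 565 and 1372 CPM in UNC0642-treated *Setdb1* KO mESCs, where 7 of the 8 rose by edgeR. The part of this shift in the protocadherin values below was not tested, and bulk RNA does not tell a change per cell from a change in the number of expressing cells.

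Of the 59 members, 20 had enough counts to be tested, namely 19 gamma members and Pcdhb14. None of the 15 alpha members passed the count filter, and neither did 21 beta members or the gamma members Pcdhga6, Pcdhgc4 and Pcdhgc5. The gamma cluster had the most counts in each library, between 353 and 2014, while the alpha cluster had between 9 and 33 counts and the beta cluster between 3 and 46 counts.

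**Figure D1:**
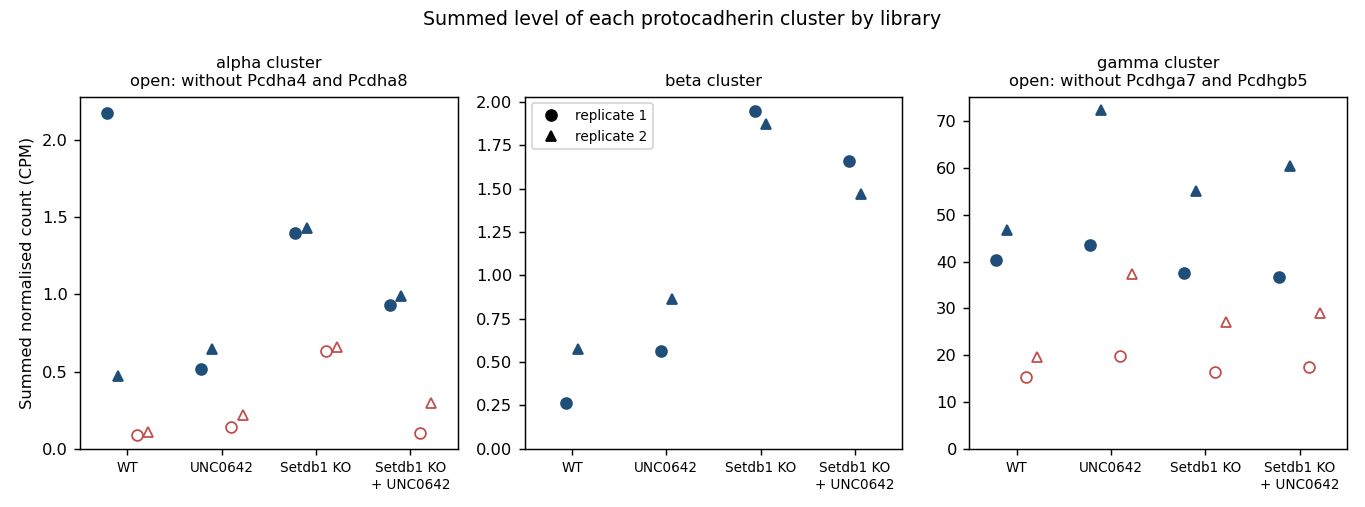
Summed normalised counts (CPM, y axis) of the alpha, beta and gamma members in each library, by condition, with circles for replicate 1 and triangles for replicate 2. Filled symbols are all members and open symbols leave out the pair of genes named in the panel title; the 4 *Setdb1* KO libraries lie between 1.47 and 1.95 CPM for the beta cluster, above the 4 libraries that kept *Setdb1*.

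The libraries separated by *Setdb1* status in the level of the beta cluster. Its summed level was 0.261 and 0.577 CPM in WT mESCs and 0.564 and 0.863 CPM in UNC0642-treated mESCs. It was 1.95 and 1.87 CPM in *Setdb1* KO mESCs and 1.66 and 1.47 CPM in UNC0642-treated *Setdb1* KO mESCs. All 4 KO libraries were above all 4 libraries that kept *Setdb1*, and the WT and UNC0642 libraries overlapped. In the first UNC0642-treated *Setdb1* KO library this rested on 1 gene, Pcdhb7, which held 1.25 of the 1.66 CPM. Without Pcdhb7, that library lay below the second WT library and both UNC0642 libraries, so the separation was lost. With all 22 members the mean sum was 0.419 ± 0.223 CPM (SD, n = 2) in WT and 0.713 ± 0.212 CPM after UNC0642. It was 1.91 ± 0.0540 CPM in *Setdb1* KO mESCs and 1.57 ± 0.134 CPM with both. This made the summed level 4.55-fold the WT level in *Setdb1* KO mESCs and 3.73-fold with both. Without the first or the second WT library the ratio was 3.31 or 7.31 for *Setdb1* KO mESCs and 2.71 or 5.99 with both, the first WT library holding only 3 beta counts. No test was made on a sum over members, and these ratios rest on 19 beta counts in WT, 80 in *Setdb1* KO and 56 in UNC0642-treated *Setdb1* KO mESCs.

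The beta counts in *Setdb1* KO mESCs were spread over many genes, most of them at 3 counts or fewer. Of the 22 beta members, 14 had a higher mean CPM in *Setdb1* KO than in WT mESCs, 2 had a lower mean and 6 had no counts in either. Members without counts in WT could not have a lower mean. Members with at least 1 count numbered 11 in each *Setdb1* KO library against 3 and 6 in the WT libraries, and 8.37 and 9.91 against 3 and 4.05 were expected at the depth of the smallest library. The UNC0642 libraries held 7 and 11 such members, with 4.53 and 7.48 expected at that depth, and 11 members had a higher and 3 a lower mean CPM after UNC0642 than in WT. Members above the floor of 3 counts numbered 4 in each *Setdb1* KO library, 0 and 2 in WT, and 1 and 2 after UNC0642. With both treatments they numbered 1 and 3. Pcdhb2 had 8 and 4 counts in *Setdb1* KO mESCs against 0 and 1 in WT, Pcdhb7 had 10 and 2 against 0 and 1 (and 1 and 1 after UNC0642), and Pcdhb3 had 2 and 4 against 1 and 0. Several members were present in both WT and KO libraries, such as Pcdhb22, with 9 and 1 counts in *Setdb1* KO and 0 and 6 in WT mESCs.

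In UNC0642-treated *Setdb1* KO mESCs the beta counts came from fewer genes. Pcdhb7 made up 12 of the 16 beta counts in the first library and 2 in the second, and Pcdhb14 made up 17 of the 40 counts in the second, where Pcdhb22 added 9. Members with at least 1 count numbered 5 and 9, and 4.93 and 6.45 were expected at the depth of the smallest library. Without Pcdhb7, the beta member with the highest mean CPM, the ratio to WT was 2.26 in place of 3.73, and it was 4.09 in place of 4.55 for *Setdb1* KO alone. Without Pcdhb14, the member with the most counts, these ratios were 3.81 and 4.66.

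Pcdhb14, at positions 37447657 to 37451094, was the only beta member tested. It had 0 and 5 counts in WT, 1 and 6 after UNC0642, 6 and 9 in *Setdb1* KO and 0 and 17 with both treatments. Both *Setdb1* KO libraries were above both WT libraries in CPM, while the other conditions overlapped with WT. Its log2 fold change against WT was 0.28 ± 1.55 (SE) after UNC0642, 1.68 ± 1.47 in *Setdb1* KO mESCs and 1.64 ± 1.47 with both, at edgeR adjusted p = 1.00, 0.986 and 0.644. When all features with more than 1 count in a library were tested, 15 beta members entered the fit and none was called, the smallest p being that of Pcdhb7 when both treatments were compared with WT (edgeR adjusted p = 0.240).

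**Figure D2:**
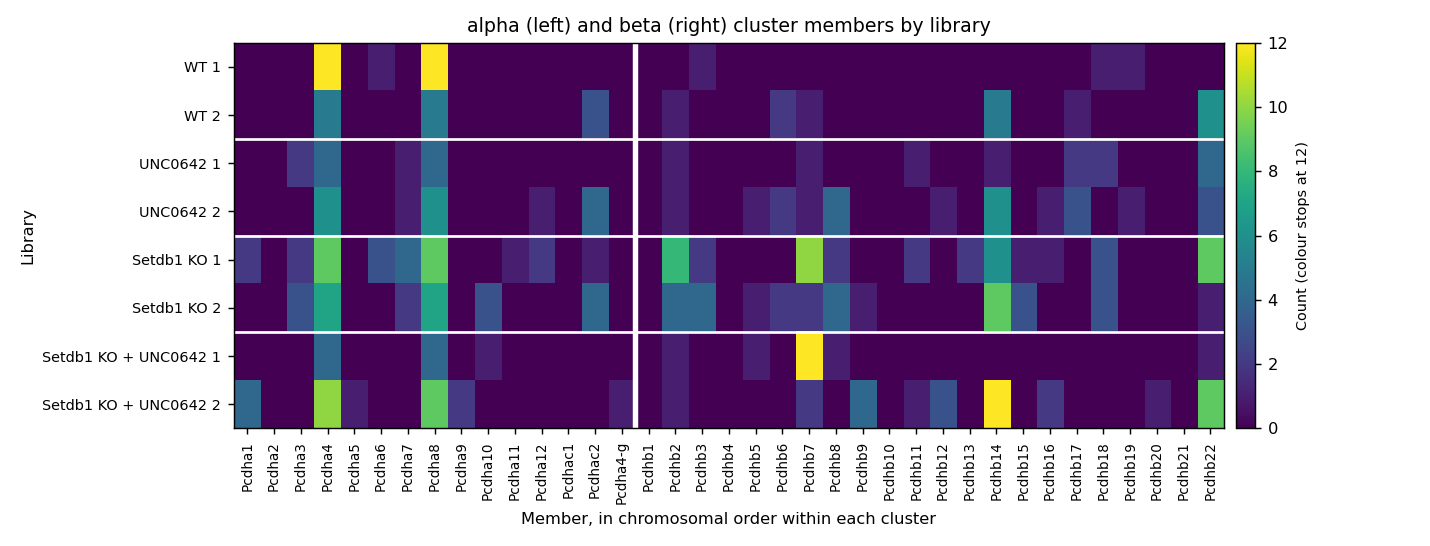
Raw counts of the 15 alpha members (left of the white bar) and 22 beta members (right) in each of the 8 libraries, with the colour scale stopping at 12 counts. Columns are in chromosomal order, except that Pcdha4-g, which has no RefSeq coordinates, is drawn last in the alpha cluster. Pcdha4 and Pcdha8 carry nearly the same colour in each library, and beta counts are spread over 11 members in each *Setdb1* KO library and in the second UNC0642 library.

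The alpha cluster was close to the detection floor, and most of its counts belonged to a single pair of genes. Pcdha4 and Pcdha8 had exactly the same count in 7 of 8 libraries and differed by 1 in the other, and together they made up 69.8% of all alpha counts. Pcdha4 had 12 and 5 counts in WT, 4 and 6 after UNC0642, 9 and 7 in *Setdb1* KO and 4 and 10 with both treatments. Counts this similar do not separate the members, so the pair's values are uncertain for each of the genes; how reads were divided between them was not tested. With the pair, the summed alpha level was 2.18 and 0.469 CPM in WT, 0.517 and 0.647 CPM after UNC0642, 1.397 and 1.43 CPM in *Setdb1* KO and 0.934 and 0.992 CPM in UNC0642-treated *Setdb1* KO mESCs, and the WT libraries lay on both sides of all the others.

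Without Pcdha4 and Pcdha8, a choice made after the data were seen, the alpha cluster showed its highest values in *Setdb1* KO mESCs. The remaining 13 members summed to 0.0870 and 0.108 CPM in WT, 0.141 and 0.216 CPM after UNC0642, 0.635 and 0.660 CPM in *Setdb1* KO and 0.104 and 0.294 CPM in UNC0642-treated *Setdb1* KO mESCs. Both *Setdb1* KO libraries were above the other 6, from 15 and 12 counts against 1 to 8 counts. Pcdha7 had 4 and 2 counts in *Setdb1* KO mESCs, 0 in both WT libraries, 1 in each UNC0642 library and 0 in both UNC0642-treated *Setdb1* KO libraries. Pcdha3 had 2 and 3 counts in *Setdb1* KO mESCs and 0 in both WT libraries, but 2 in 1 of the UNC0642 libraries.

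The C-type alpha members, which lie at the end of the cluster and in neurons are expressed from both chromosomes rather than by random choice, were hardly detected. Pcdhac1 had 0 counts in all 8 libraries, which allows a level of up to between 0.108 and 0.311 CPM in these libraries, for counting error only. Pcdhac2 had 0 and 3 counts in WT, 0 and 4 after UNC0642, 1 and 4 in *Setdb1* KO and 0 and 0 with both treatments. With no count filter 10 alpha members could be tested and none was called in any of the 6 comparisons, with 0 at an unadjusted p under 0.05 in each of them.

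The gamma cluster was expressed in all conditions, and most of its counts were assigned to a few members. Per kilobase of exon, Pcdhga7 was highest in WT mESCs at 2.52 ± 0.159 CPM per kb (SD, n = 2), followed by Pcdhgb5 at 1.90 ± 0.0960. Pcdhgc3, at 0.890 ± 0.318, and Pcdhga11, at 0.880 ± 0.0755, came next and did not differ beyond their spread. Pcdhga1 was at 0.308 ± 0.0460 and Pcdhga12 at 0.206 ± 0.0146 CPM per kb, and the other 16 members lay between 0.00967 and 0.114. Exon lengths were taken from GENCODE vM21, which may not be the annotation used for counting.

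Pcdhga7 and Pcdhgb5 resembled the alpha pair. Their counts differed by 2 to 21 in each library, at most 7.92% of the Pcdhga7 count, and together they made up 53.1% of all gamma counts, and their differences summed over libraries were 1.95% of their counts. In the next most similar gamma pair, Pcdhga10 and Pcdhgb7, this was 12.4%. As for the alpha pair, the values of Pcdhga7 and Pcdhgb5 are therefore uncertain for each of the genes. This holds for their levels per kilobase and for the Pcdhga7 fold changes below, and how reads were divided between them was not tested. Pcdhga7 was at 12.5 and 13.7 CPM in WT, 12.3 and 17.6 CPM after UNC0642, 11.05 and 14.6 CPM in *Setdb1* KO and 9.96 and 15.8 CPM in UNC0642-treated *Setdb1* KO mESCs. The conditions overlapped, with log2 fold changes against WT of 0.19 ± 0.48 (SE), -0.04 ± 0.48 and -0.03 ± 0.48 at edgeR adjusted p of 1.00, 1.00 and 0.989. Their 95% confidence intervals on the log2 scale reached from -1.11 to 1.26.

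**Figure D3:**
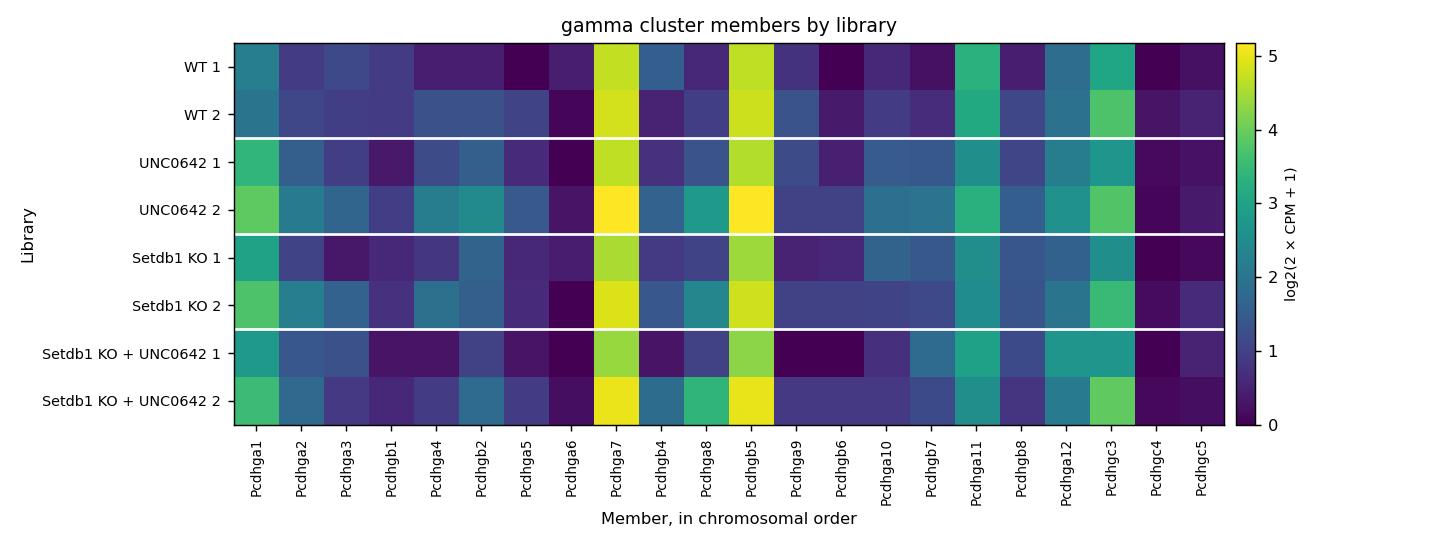
Levels of the 22 gamma members, in chromosomal order, in each of the 8 libraries, with colour giving log2 of 2 × CPM + 1. Pcdhga7 and Pcdhgb5 are the brightest columns in all libraries, and Pcdhga1, the first member, is brighter in the 6 treated libraries than in both WT libraries.

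No gamma member was called in any comparison by the main edgeR test. In UNC0642-treated mESCs against WT, 0 of 20 tested members were called higher, against 0% of all 16245 features tested, and 0 were called lower. In *Setdb1* KO mESCs 0 members were called, where 1.11% of all features were called higher and 0.00616% lower. In UNC0642-treated *Setdb1* KO mESCs 0 members were called, where 3.6% of features were called higher and 0.505% lower. At an unadjusted p under 0.05 the members higher than in WT numbered 2 after UNC0642 (2.96% of all features), 1 in *Setdb1* KO (7.07%) and 2 with both (10.9%). None was lower, where 0.394%, 1.63% and 7.11% of all features were. DESeq2 on all 8 libraries and on only the 4 libraries compared called 0 members as well.

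The summed gamma level was 40.3 and 46.7 CPM in WT, 43.6 and 72.4 CPM after UNC0642, 37.7 and 55.2 CPM in *Setdb1* KO and 36.6 and 60.4 CPM in UNC0642-treated *Setdb1* KO mESCs. Conditions overlapped and the second replicate was higher than the first in each of them. The mean summed level was 1.33-fold the WT level after UNC0642, 1.07-fold in *Setdb1* KO mESCs and 1.11-fold with both, and without Pcdhga7 and Pcdhgb5 these ratios were 1.63, 1.24 and 1.32. Without the second UNC0642 library the first ratio was 1.00.

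The gamma members shared the direction of their difference between replicates. When replicate number was added to the model as a block, all 19 tested gamma members were higher in replicate 2 than in replicate 1. Of all features, 50.6% were. The median log2 difference was 0.75 in the gamma members against 0.01 over all features. These members share constant exons and libraries, so they are not independent of each other. Pcdhga8 (log2 difference 2.08, adjusted p = 0.0100), Pcdhgc3 (1.07, adjusted p = 0.0155) and Pcdhga4 (1.74, adjusted p = 0.0226) were called, which was 3 of 20 members against 18.3% of all features called higher. What the replicate number stands for is not given in the sources used here.

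Across the gamma cluster, UNC0642 alone gave positive fold changes in the most members. Of the 19 tested gamma members, 16 had a positive log2 fold change after UNC0642, with a median of 0.90 and a range from -0.48 to 2.46, while the median over all features was -0.02, with 48.0% of them positive. In *Setdb1* KO mESCs 11 of 19 were positive with a median of 0.16, and with both 12 of 19 were positive with a median of 0.04. These members share constant exons and were measured in the same 2 libraries per condition, so they are not independent of each other. The summed gamma level of the first UNC0642 library, 43.6 CPM, lay between those of the WT libraries, 40.3 and 46.7 CPM. Members whose libraries lay above both WT libraries numbered 8 of 20 after UNC0642, against 13.7% of all features, and 8 in *Setdb1* KO mESCs, against 17.5%. With both they numbered 5, against 22.3%. Members below both WT libraries numbered 0 after UNC0642 (10.7% of all features), 2 in *Setdb1* KO (13.1%) and 2 with both (21.1%), and in the last 2 comparisons these were Pcdhga11 and Pcdhgb1.

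**Figure D4:**
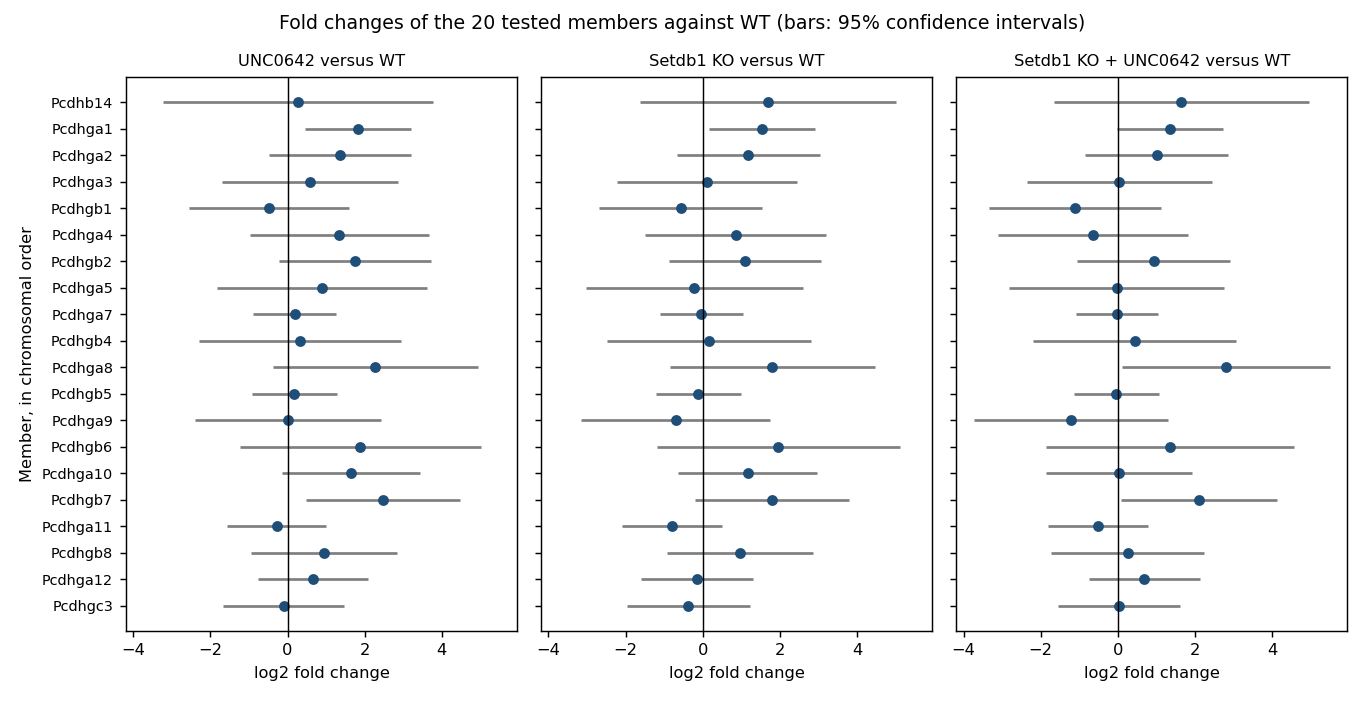
Log2 fold changes against WT (x axis) of the 20 tested members, in chromosomal order, after UNC0642, in *Setdb1* KO mESCs and with both, from edgeR on all 8 libraries; bars are 95% confidence intervals. After UNC0642, 16 of the 19 gamma points lie right of 0, and most intervals in all panels include 0.

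Pcdhga1, Pcdhga8 and Pcdhgb7 were above both WT libraries in all 6 treated libraries, 3 of 20 members against 7.05% of all features. Pcdhga1, the first gamma member, with its first exon at the start of the cluster (37661775), was at 1.83 and 1.48 CPM in WT, 4.79 and 6.90 CPM after UNC0642, 3.47 and 6.16 CPM in *Setdb1* KO and 3.01 and 5.37 CPM in UNC0642-treated *Setdb1* KO mESCs. These values came from 21 and 41 counts in WT and from 29 to 192 counts in the other libraries. The log2 fold change was 1.83 ± 0.61 (SE) after UNC0642, 1.54 ± 0.61 in *Setdb1* KO mESCs and 1.36 ± 0.61 with both. The unadjusted p values were 0.0149, 0.0314 and 0.0523, and the edgeR adjusted p values were 0.942, 0.461 and 0.284. DESeq2 with the replicate number as a block called Pcdhga1 higher in all of these comparisons (adjusted p = 0.0163, 0.0273 and 0.0324, with 1.42%, 6.49% and 13% of all features called higher), whereas edgeR with the same block did not (adjusted p = 0.235, 0.113 and 0.0778).

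Pcdhga1 made up a larger part of the gamma counts in treated libraries. This share uses the Pcdhga1 counts given above, so it is not a separate result. Pcdhga7 and Pcdhgb5 were left out of the shares, a choice made after the data were seen. Pcdhga1 held 11.9% (95% Wilson interval 7.89 to 17.5) and 7.51% (5.58 to 10.0) of the remaining gamma counts in the WT libraries. In the 6 treated libraries it held between 17.3% and 24.2%, and the lowest of these had an interval from 12.3 to 23.7. These intervals cover counting error only. Pcdhga11, chosen after its values were seen, held 28.8% and 19.96% of the same counts in WT and between 8.49% and 19.6% in the treated libraries. Pcdhgc3 held 23.7% and 31.1% in WT and between 14.3% and 24.5% in the treated libraries. Shares add up to a fixed whole, so a share can be lower without a lower level. After UNC0642 both genes had lower shares than in WT, while their CPM overlapped with WT.

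Pcdhga8 was at 0.261 and 0.469 CPM in WT, 0.752 and 2.95 CPM after UNC0642, 0.550 and 2.15 CPM in *Setdb1* KO and 0.519 and 4.70 CPM in UNC0642-treated *Setdb1* KO mESCs. In each treated condition the second replicate was the higher one, and the last value came from 128 counts against 5 in its partner. The log2 fold changes against WT were 2.28 ± 1.18 (SE), 1.80 ± 1.18 and 2.80 ± 1.19, with edgeR adjusted p = 1.00, 0.852 and 0.256. With the replicate number as a block, Pcdhga8 was called higher in UNC0642-treated *Setdb1* KO mESCs by edgeR (log2 fold change 2.59, adjusted p = 0.0366, with 9.98% of all features called higher) and by DESeq2 (2.57, adjusted p = 0.0109). Without the second UNC0642-treated *Setdb1* KO library the log2 fold change was 0.44 ± 1.36.

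Pcdhgb7 was at 0.0870 and 0.289 CPM in WT, 0.846 and 1.47 CPM after UNC0642, 0.846 and 0.605 CPM in *Setdb1* KO and 1.25 and 0.625 CPM in UNC0642-treated *Setdb1* KO mESCs. Its replicates kept no common order, unlike those of Pcdhga8, and the first WT value was a single count. The log2 fold changes were 2.46 ± 0.89 (SE), 1.79 ± 0.89 and 2.11 ± 0.90, at unadjusted p of 0.0207, 0.0735 and 0.0429 and edgeR adjusted p of 1.00, 0.668 and 0.257. Pcdhga2, the next gene after Pcdhga1, was at 0.435 and 0.577 CPM in WT, 0.987 and 1.65 CPM after UNC0642, 0.550 and 1.82 CPM in *Setdb1* KO and 0.830 and 1.21 CPM with both, with log2 fold changes of 1.36 ± 0.82, 1.18 ± 0.82 and 1.00 ± 0.83 (edgeR adjusted p = 1.00, 0.887 and 0.607).

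**Figure D5:**
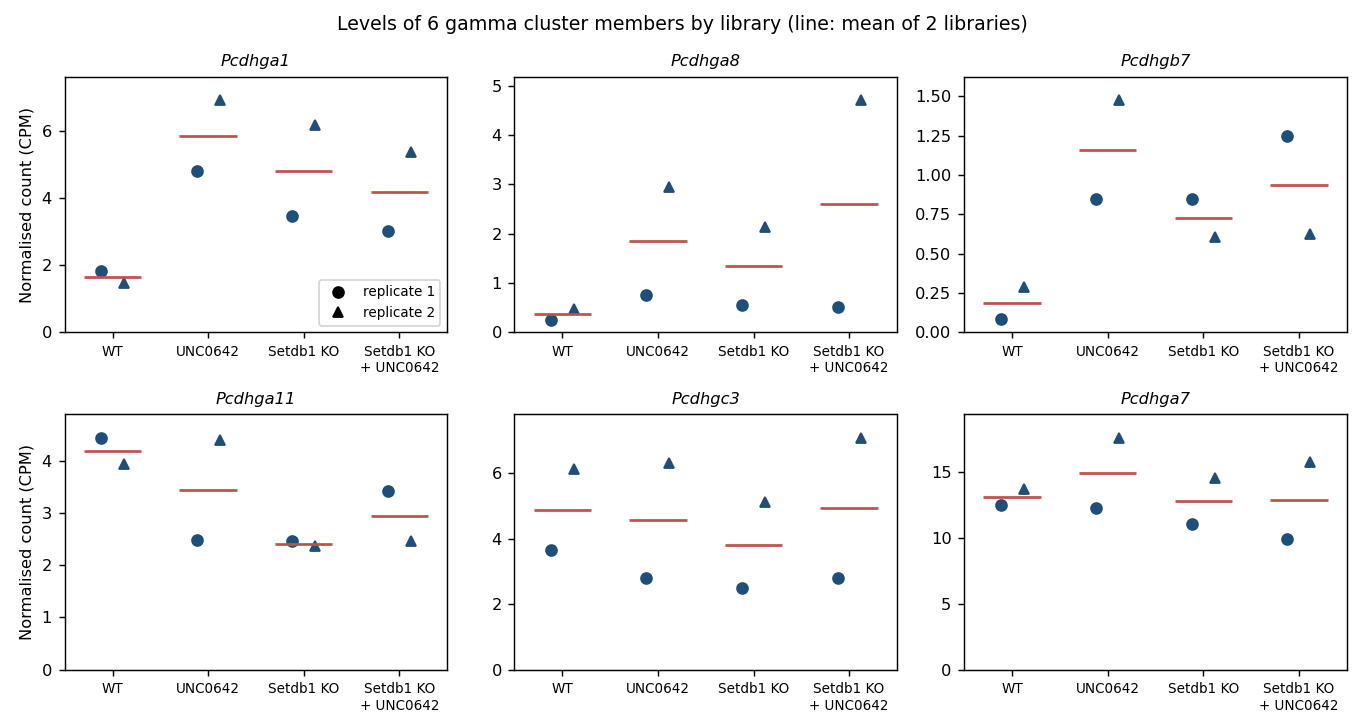
Normalised counts (CPM, y axis from 0) of Pcdhga1, Pcdhga8, Pcdhgb7, Pcdhga11, Pcdhgc3 and Pcdhga7 in each library, with circles for replicate 1, triangles for replicate 2 and a line at the mean of the 2 libraries. Pcdhga1, Pcdhga8 and Pcdhgb7 lie above both WT points in all 6 treated libraries, whereas Pcdhgc3 and Pcdhga7 overlap with WT in each condition.

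Pcdhga11 went the other way in the KO libraries. It was at 4.44 and 3.93 CPM in WT, 2.49 and 4.39 CPM after UNC0642, 2.45 and 2.37 CPM in *Setdb1* KO and 3.42 and 2.46 CPM in UNC0642-treated *Setdb1* KO mESCs. The 4 KO libraries were below both WT libraries, while the UNC0642 libraries overlapped with WT. In each comparison taken alone, such a position was not rare. Of all features, 13.1% lay below both WT libraries in *Setdb1* KO mESCs and 21.1% with both. Among the 20 tested members 2 did so in each of these comparisons. The log2 fold changes were -0.28 ± 0.57 (SE), -0.79 ± 0.57 and -0.51 ± 0.57, none of which passed the test (edgeR adjusted p = 1.00, 0.914 and 0.731).

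The C-type gamma members lie at the end of the cluster, and Pcdhgc3 is known to be expressed in many tissues. Pcdhgc3 was at 3.66 and 6.13 CPM in WT, 2.82 and 6.33 CPM after UNC0642, 2.50 and 5.12 CPM in *Setdb1* KO and 2.80 and 7.09 CPM in UNC0642-treated *Setdb1* KO mESCs. The difference between replicates exceeded that between conditions, and the log2 fold changes were -0.10 ± 0.70 (SE), -0.37 ± 0.70 and 0.02 ± 0.70 (edgeR adjusted p = 1.00, 1.00 and 0.992). Pcdhgc4, which is required for the survival of some interneurons, had between 0 and 3 counts in each library and Pcdhgc5 between 1 and 6, so that no difference between conditions was detectable at this depth.

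When both treatments were compared with each single one, no member was called by edgeR in UNC0642-treated *Setdb1* KO mESCs against *Setdb1* KO mESCs, where 0% of all features were called in either direction, or against UNC0642-treated mESCs, where 1.13% were called higher and 0.0369% lower. None had an unadjusted p under 0.05 in either comparison, where 2.79% and 6.37% of all features were higher and 1.79% and 2.7% lower at that level, and DESeq2 called none. Against UNC0642 alone, 15 of 19 gamma members had a negative log2 fold change, with a median of -0.47 against -0.02 for all features. Pcdhga10, Pcdhga4 and Pcdhga9 lay below both UNC0642 libraries. These 3 of 20 members were no larger a share than the 16.7% of all features that did so. Pcdhga10 was at 0.893 and 1.37 CPM after UNC0642, 1.06 and 0.550 CPM in *Setdb1* KO and 0.311 and 0.404 CPM with both, against 0.261 and 0.433 CPM in WT. Pcdhga4 was at 0.658 and 1.76 CPM after UNC0642, 0.381 and 1.38 CPM in *Setdb1* KO and 0.104 and 0.441 CPM with both, against 0.174 and 0.721 CPM in WT. The log2 fold change from UNC0642 alone to both was -1.62 ± 0.80 (SE) for Pcdhga10 and -1.98 ± 1.08 for Pcdhga4 (edgeR adjusted p = 0.656 and 0.718); these genes were chosen after their values were seen.

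Whether the joint change differed from the sum of both single changes was tested as an interaction on the log2 scale. No member and no feature was called by edgeR, and 2 members had an unadjusted p under 0.05, both with a joint change below the sum, against 0.566% of all features below and 0.185% above it. They were Pcdhga10 (-2.78 ± 1.13 SE, edgeR adjusted p = 1.00) and Pcdhga1 (-2.02 ± 0.85, edgeR adjusted p = 1.00). Pcdhga4 had -2.84 ± 1.498 (edgeR adjusted p = 1.00). Of the 19 gamma members, 16 had a negative interaction, with a median of -0.71, while the median over all features was -0.04. The interaction uses all 8 libraries, so it shares the UNC0642 and joint libraries with the comparison of both treatments against UNC0642 alone. It also shares the UNC0642 and WT libraries with the comparison of UNC0642 against WT, where 16 of 19 gamma members were positive. The negative counts of 16 and 15 members and the positive count after UNC0642 are therefore not independent of each other.

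The genes around and beside the clusters were examined for comparison. Of 14 flanking genes on chromosome 18, 12 were tested and none was called in any comparison by edgeR, with 1 at an unadjusted p under 0.05 against WT, Arap3, in UNC0642-treated *Setdb1* KO mESCs. Arap3, a GTPase-activating protein, was at 6.88 and 3.97 CPM in WT and at 0.934 and 0.368 CPM in UNC0642-treated *Setdb1* KO mESCs, a log2 fold change of -3.13 ± 0.82 (SE, adjusted p = 0.0698), which passed with the replicate block (adjusted p = 0.0241) and in DESeq2 (adjusted p = 0.00277). Slc25a2, a mitochondrial ornithine carrier encoded between the beta and gamma clusters, had between 0 and 9 counts in each library. Taf7, a subunit of TFIID encoded in the same interval, was at 194 and 117 CPM in WT and between 75.9 and 258 CPM elsewhere, with all conditions overlapping.

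Of 12 protocadherin genes outside the clusters, 5 were tested, and 2 of them rose in UNC0642-treated *Setdb1* KO mESCs by edgeR, whereas DESeq2 on all 8 libraries called 3. Pcdh8, which encodes a protocadherin that acts in cell movements of the embryo and at synapses, was at 0.435 and 0.397 CPM in WT, 2.68 and 1.62 CPM after UNC0642, 3.00 and 2.42 CPM in *Setdb1* KO and 26.7 and 17.8 CPM in UNC0642-treated *Setdb1* KO mESCs. Its log2 fold change against WT was 5.73 ± 0.66 (SE, edgeR adjusted p = 0.00403). Pcdh9 was at 0.958 and 0.289 CPM in WT and 11.2 and 5.99 CPM in UNC0642-treated *Setdb1* KO mESCs, with a log2 fold change of 3.85 ± 0.85 (adjusted p = 0.0386). Without the first or the second WT library the edgeR adjusted p was 0.0686 or 0.0537 for Pcdh8 and 0.108 or 0.244 for Pcdh9, and for Pcdh9 it was 0.132 or 0.0578 without the first or the second UNC0642-treated *Setdb1* KO library. The gene called by DESeq2 alone was Pcdh17, at 0.0870 and 0.325 CPM in WT and 10.2 and 0.919 CPM in UNC0642-treated *Setdb1* KO mESCs (log2 fold change 4.54 ± 1.47, edgeR adjusted p = 0.134, DESeq2 adjusted p = 0.00395). Without the first of these KO libraries its log2 fold change in edgeR was 1.98. In *Setdb1* KO mESCs alone the changes of Pcdh8 and Pcdh9, 2.70 ± 0.60 and 2.23 ± 0.81, did not pass (adjusted p = 0.0827 and 0.377) but did with the replicate block (adjusted p = 0.00931 and 0.0374). The difference between these genes and the clustered members was not tested.

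The regulators of the locus and the partners of the proteins gave few calls. Of 28 chromatin regulators of the locus, which include Ctcf, the cohesin subunits, Smchd1 and the DNA methyltransferases, 27 were tested, and none passed the edgeR test in any comparison. At an unadjusted p under 0.05, 1 was higher and 1 lower in *Setdb1* KO mESCs, and 1 was higher and 2 lower with both. DESeq2 called *Setdb1* alone in these comparisons, and the block added Atf7ip and, with both treatments, Ehmt2, which encodes G9a. Atf7ip, which encodes the partner that stabilises SETDB1, was at 102 and 94.1 CPM in WT, 126 and 99.1 CPM after UNC0642, 341 and 211 CPM in *Setdb1* KO and 373 and 155 CPM in UNC0642-treated *Setdb1* KO mESCs. The 4 KO libraries were above the 4 others. Of all features, 17.5% lay above both WT libraries in *Setdb1* KO mESCs and 22.3% with both, which is a looser rule that leaves out the UNC0642 libraries. The share of features with all 4 KO libraries above the 4 others was not counted. The log2 fold change of Atf7ip in *Setdb1* KO mESCs was 1.49 ± 0.51 (SE, edgeR adjusted p = 0.326), which passed in edgeR with the replicate block (adjusted p = 0.0339). None of the 15 partners and processing enzymes of protocadherin proteins, such as Adam10, a protease that cleaves them at the cell surface, was called by edgeR, and 1 was lower at an unadjusted p under 0.05 with both treatments. DESeq2 and edgeR with the block both called Cyfip2, a subunit of the WAVE complex that clustered protocadherins bind, lower there.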

How the data were processed

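RNA-seq (150-bp paired-end, poly(A)-selected) was performed on 8 mESC libraries. The authors trimmed reads with Trim Galore 0.3.7, per the submitters' processing notes, mapped them to the mouse genome (mm10, GRCm38) with TopHat2 and counted genes and transposable element subfamilies with TEtranscripts at default settings. The authors deposited 1 table of raw counts per library, by gene and by subfamily. The gene annotation used for counting is not given in the sources used here. How reads in exons shared by several members were divided was not tested.

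Samples were grouped by treatment label and replicate number by title. All counts entered a single fit with edgeR 4.0.16 (R 4.3.3). Features were kept with filterByExpr (minimum count 10, minimum total 15), leaving 15313 genes and 932 subfamilies. Libraries were scaled by TMM (factors between 0.810 and 1.20), the quasi-likelihood test was applied with 1 coefficient per condition, and p-values were Benjamini-Hochberg adjusted over all features, with a threshold of 0.05. Fold changes used a prior count of 0.125. Level, SD and n are over 2 libraries, which were described as biological replicates, so p-values measure the spread between these libraries. The script was tested on simulated data, in which only features with a mean above 1 CPM were changed. Its pass mark was set on edgeR with the replicate number as a block. That test therefore does not cover members below 1 CPM, which most were. DESeq2 1.42.0, the authors' tool, was an alternative. Coordinates came from RefSeq (GRCm38.p6), which held 58 of 59 members by symbol, and exon lengths from GENCODE vM21. The member without coordinates was Pcdha4-g, and RefSeq lists Pcdhgb8 as a transcribed pseudogene.

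The main fit had no term for the replicate number, so its p-values ignore any pairing of the samples. Only the fits with a replicate block treated replicate numbers as pairing the samples. The block was used because the difference between replicates correlated across genes between all 6 pairs of conditions (Pearson r between 0.285 and 0.663, as a description).

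The members and gene lists were chosen with earlier results of these data known. Members were named by rule: per cluster the 4 tested members with the smallest p for both treatments against WT, the C-type members, the highest member of each cluster, and any member called. Other named members were chosen after their values were seen. Member sequences are not reported here.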

Additional observations from a re-analysis of the deposited data

How the results depend on the processing

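Under all alternatives without a replicate block, including DESeq2, RLE factors, total counts, no count filter, a prior count of 2, genes only, a fold change above 10 and leaving out each library in turn (0 to 0 calls), no member was called in any comparison. With the replicate number as a block, edgeR called 1 member for both treatments against WT (Pcdhga8), and DESeq2 with the block, added after seeing the data, called 1 after UNC0642, 1 in *Setdb1* KO mESCs and 2 with both (Pcdhga1 in each, plus Pcdhga8); the block changed no other member call. Of 508 alternative values for the 29 log2 fold changes of members, 481 kept their direction and their side of the threshold, 5 passed it only with a block and 22 changed sign, 17 of these when a library was left out. For Pcdhgc3 with both treatments the block gave -0.062 in edgeR and -0.042 in DESeq2, and total counts -0.10; for Pcdhga7 genes only gave 0.017 in *Setdb1* KO mESCs and 0.041 with both. Leaving out single libraries gave ranges against WT after UNC0642 of -1.17 to 4.52 for Pcdhb14, -0.84 to 0.37 for Pcdhgc3, -0.13 to 0.43 for Pcdhga7 and -0.77 to 0.073 for Pcdhga11. In *Setdb1* KO mESCs they were -1.01 to 0.054 for Pcdhgc3 and -0.28 to 0.15 for Pcdhga7. With both treatments they were -4.25 to 5.85 for Pcdhb14, -0.81 to 0.52 for Pcdhgc3 and -0.40 to 0.26 for Pcdhga7. The log2 ratios of summed alpha CPM moved without Pcdha4 and Pcdha8, from -1.18 to 0.87 after UNC0642, from 0.10 to 2.73 in *Setdb1* KO mESCs, from -0.46 to 1.03 with both, from -0.55 to -1.70 from *Setdb1* KO to both and from 0.73 to 0.16 from UNC0642 to both. For *Setdb1* KO to both, total counts gave -0.66 and leaving out the highest alpha member -0.85. Without Pcdhb7, the beta member with the highest mean CPM and left out after seeing the data, the beta ratio was -0.86 in place of -0.29 from *Setdb1* KO to both and 0.43 in place of 1.13 from UNC0642 to both, against -0.29 and 1.11 without Pcdhb14, which had the most counts. The cause was not tested. Depth limits the alpha and beta clusters, whose members had at most 17 counts in any library. Among other genes, Pcdh9 with both treatments lost its call with total counts (3.65, adjusted p = 0.0516), and Pcdh8 in *Setdb1* KO mESCs passed in DESeq2 on all 8 libraries (2.71, adjusted p = 0.00397). Pcdh17 with both treatments passed in DESeq2 and in edgeR on only the 4 libraries compared (4.53, adjusted p = 0.0264).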
